A study of Mus musculus with 2 samples.

Results

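The genes described here encode the protein subunits of the mitochondrial ribosome. They were found by gene symbol, as the array rows whose name starts with Mrpl (large subunit) or Mrps (small subunit) followed by a digit. The rule found 75 of the 24203 genes on the array, 46 of them named for the large and 29 for the small subunit, on 116 transcript rows of 3 probes each. RNA was hybridised to NimbleGen arrays with a single dye. It came from sorted LT-HSCs, the long-term stem cells of the blood, taken from bone marrow. There was 1 array of cells from cia-cGAS knockout mice and 1 array of cells from wild-type mice, both of C57BL/6 strain and aged 8 weeks. The labels describe cia-cGAS as a circular RNA. They do not give the sort markers, the deleted segment or the number of animals pooled. With 1 array per group no difference has a replicate check, and nothing was tested between the groups.

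The mitochondrial ribosome sits in the mitochondrial matrix and translates the few messenger RNAs that mitochondrial DNA encodes. All of those proteins are core subunits of the respiratory chain and ATP synthase. Its ribosomal RNAs come from mitochondrial DNA, whereas all its proteins are encoded in the nucleus, made in the cytosol and imported. Many of the proteins have a counterpart in the bacterial ribosome, and the others are specific to mitochondria. The small subunit reads the messenger RNA, and the large subunit joins the amino acids and releases the chain near the inner membrane. Loss of mitochondrial translation lowers the capacity for respiration, and blood stem cells are known for low respiratory activity at rest.

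Promoters of the members were read as RefSeq sequences on the GRCm38.p6 assembly, each from 250 bases before to 50 bases after the gene's start, and 66 of the 75 members matched. The promoters of the 3 members that differed at least 2-fold are shown, with that of Mrpl22, which held cores of 3 factors and was among the 10 lowest members. Mrpl51 lies at chr6:125191950-125192249 on the plus strand, Mrps14 at chr1:160194965-160195264 on the plus strand, Mrpl41 at chr2:24975049-24975348 on the minus strand and Mrpl22 at chr11:58171414-58171713 on the plus strand. Capitals mark the short cores searched on both strands, which are GCATGCG for NRF1, CCGGAAG for GABPA and other ETS factors, AAGATGG and ATGGCGG for YY1 and CACGTG for MYC. All are transcription factors known for genes of mitochondrial biogenesis or growth.
Mrpl51: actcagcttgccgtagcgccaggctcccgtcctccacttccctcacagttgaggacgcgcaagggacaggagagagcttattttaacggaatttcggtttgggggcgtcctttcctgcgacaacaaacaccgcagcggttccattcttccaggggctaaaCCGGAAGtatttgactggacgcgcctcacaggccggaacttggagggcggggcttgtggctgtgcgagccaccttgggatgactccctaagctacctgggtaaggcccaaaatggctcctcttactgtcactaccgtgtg
Mrps14: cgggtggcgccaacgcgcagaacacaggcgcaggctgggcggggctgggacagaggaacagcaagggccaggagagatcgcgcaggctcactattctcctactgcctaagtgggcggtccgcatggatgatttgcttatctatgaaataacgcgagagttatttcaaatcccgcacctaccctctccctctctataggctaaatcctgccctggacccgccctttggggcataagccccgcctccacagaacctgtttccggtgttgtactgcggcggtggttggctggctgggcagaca
Mrpl41: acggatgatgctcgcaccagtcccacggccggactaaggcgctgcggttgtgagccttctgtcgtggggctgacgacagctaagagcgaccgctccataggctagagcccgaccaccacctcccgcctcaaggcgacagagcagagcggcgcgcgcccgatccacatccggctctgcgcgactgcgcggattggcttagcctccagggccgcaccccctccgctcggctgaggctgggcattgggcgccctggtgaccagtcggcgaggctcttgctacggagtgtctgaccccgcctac
Mrpl22: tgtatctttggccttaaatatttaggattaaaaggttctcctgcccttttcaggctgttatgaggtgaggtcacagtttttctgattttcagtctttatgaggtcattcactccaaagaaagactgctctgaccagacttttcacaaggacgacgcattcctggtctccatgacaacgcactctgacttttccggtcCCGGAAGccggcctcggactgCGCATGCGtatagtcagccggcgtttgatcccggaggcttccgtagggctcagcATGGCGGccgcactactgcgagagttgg
Mrpl51 held 1 ETS core on the forward strand. Mrpl22 held an ETS core, an overlapping forward and reverse NRF1 core and the second YY1 core, all within the 100 bases around its start. No core was found in the windows of Mrps14 and Mrpl41. A match describes these letters and is not a shown binding site.

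The values are log2 intensities after RMA, a normalization that equalises the distributions of arrays, so each difference is relative to the other genes. Detection was judged against 1025 rows of receptor genes for smell, pheromones and taste, whose 95th percentile gave a floor of 8.97 in the knockout and 9.11 in the wild type. Above both floors were 58 of the 75 members, or 77.3%, against 38.2% of all genes. Mrpl41 passed the floor in the knockout alone and Mrpl20 in the wild type alone, where the knockout was at least 1.37-fold lower. The other 15 were below both floors and are given no fold. They were Mrpl28, Mrpl32, Mrpl36, Mrpl44, Mrpl46, Mrpl47, Mrpl50 and Mrpl55 of the large subunit, and Mrps5, Mrps7, Mrps23, Mrps26, Mrps28, Mrps30 and Mrps34 of the small one. Mrps9, Mrps10, Mrps18a and Mrpl1 were detected on both arrays within 0.1 of a floor, and Mrpl50 missed the wild-type floor by less than that.

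Mitochondrial ribosomal protein genes were slightly lower in the knockout as a group, and few differed 2-fold. Among the 58 members above both floors, 43 had a negative and 15 a positive difference between knockout and wild type. The negative share was 74.1% and the positive 25.9%, against 53.6% and 46.4% of the 9239 genes above both floors. The median difference of the members was -0.23 on the log2 scale (1.17-fold lower), with quartiles of -0.55 and 0.05, against -0.04 for all genes above both floors, with quartiles of -0.34 and 0.27. In sorted cells measured in bulk, fewer cells of a type and less RNA per cell cannot be told apart. The SD across members was 0.43, which describes the spread between genes and not between animals. Of the 60 members above a floor, 1 was at least 2-fold higher and 2 were at least 2-fold lower. These shares of 1.67% and 3.33% stand beside 5.54% higher and 4.06% lower among the 10855 genes above a floor. At 1.5-fold, 4 members were higher and 14 lower, or 6.67% and 23.3%, against 11.6% and 12.3% of all genes. At 3-fold there were 0 and 0, against 2.59% and 0.774%. Counting only members above both floors, 0 were at least 2-fold higher and 2 lower, against 5.37% and 4.19% of all genes above both floors.

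Marker lists of other cells differed between the 2 arrays, and their part in the differences of the members was not tested. The stem cell genes Kit, Ly6a, Gata2 and Meis1 were detected on both arrays, while the stem cell receptors Procr and Slamf1 were below both floors. Cd34 and Cd48, which mouse LT-HSCs are known to lack or hold at low levels, were detected on both arrays, with differences of -0.51 and -0.11. The stem and progenitor list, which holds these genes too, had a median of 0.07 over the 8 of 15 above both floors. Among 13 B lineage genes 8 reached 2-fold lower and 0 reached 2-fold higher, and their summed intensity was 5235 in the knockout and 25474 in the wild type. Among 13 erythroid genes 4 reached 2-fold lower, with a sum of 89283 in the knockout and 129486 in the wild type. Neutrophil and monocyte lists had positive medians of 0.38 and 0.46. Above both floors, 14 neutrophil genes had a positive difference and 1 a negative one. The monocyte list was mixed, with 6 positive and 3 negative, the latter being Cd14 (-0.44), Cd68 (-0.29) and Irf8 (-0.27). A rise of 2-fold or more was seen in 3 of 16 neutrophil and 3 of 12 monocyte genes. Their sums were 260725 and 110845 in the knockout, against 191351 and 82408 in the wild type. Within the monocyte sums, Ctss alone gave 31733 in the knockout and 11097 in the wild type. Some mature-cell genes were near the highest value of either array, 15.84 in the knockout and 15.89 in the wild type. In the knockout and wild type, Lyz2 read 15.78 and 15.72, S100a9 15.39 and 15.37, and Hba-a1 15.22 and 15.41. Kit read 12.42 and 12.12. Prtn3, Cx3cr1, Klf1 and Epor of the same 3 lists were below both floors. The purity of the sorted cells was not tested. Genes of S phase, when cells copy their DNA, had a median of -0.61, and 8 of 20 were at least 2-fold lower.

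**Figure D1:**
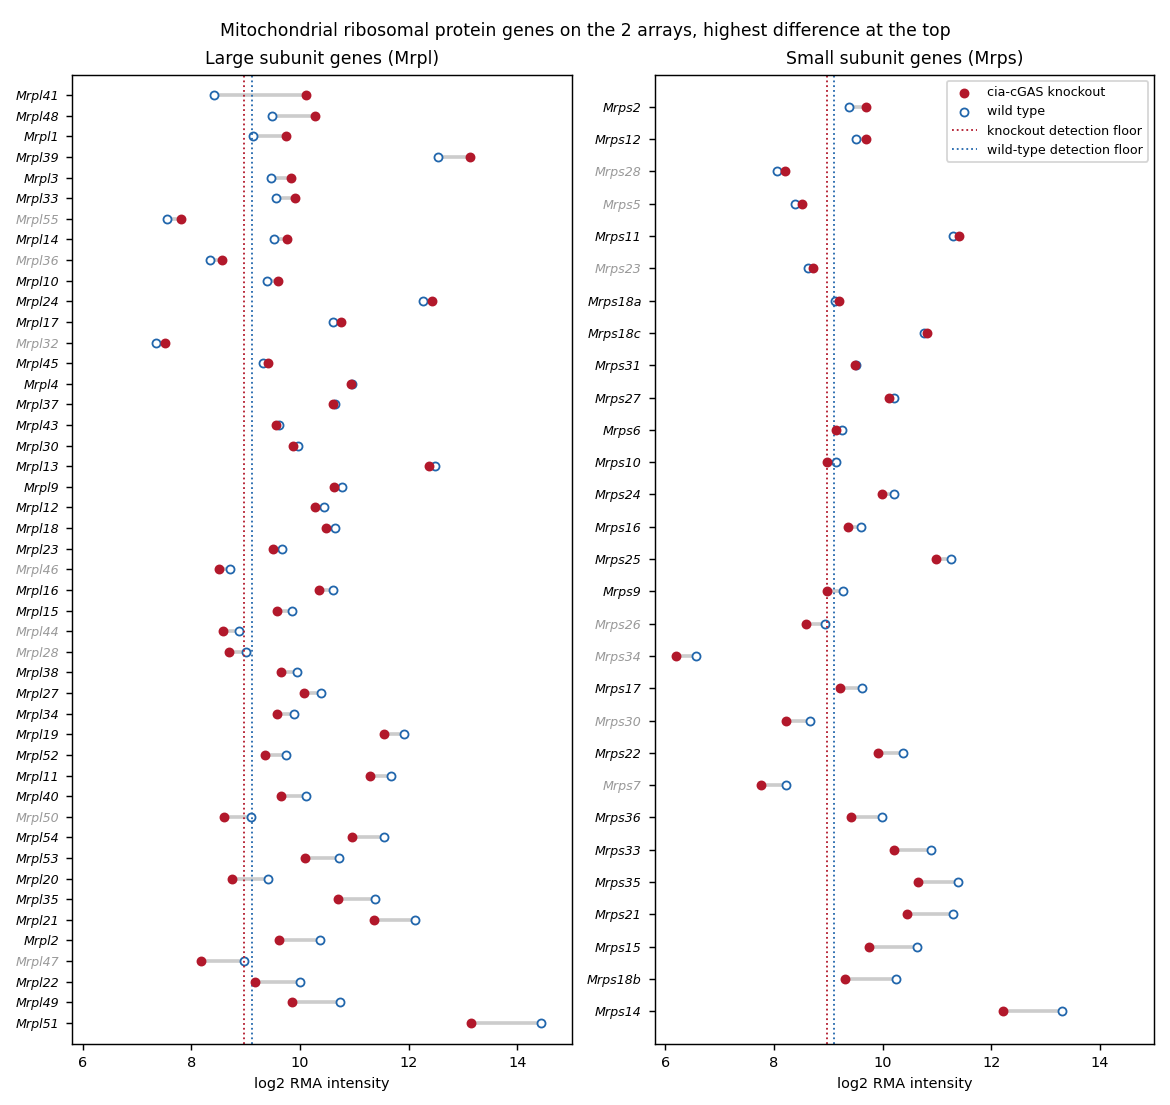
Log2 RMA intensity (horizontal axis) of each mitochondrial ribosomal protein gene in the knockout (filled red) and the wild type (open blue), with genes ordered by difference and dotted lines at the detection floors of each array. Gene names in grey were below both floors. Most red points lie left of their blue partner, with Mrpl51 and Mrps14 at the bottom of the panels and Mrpl41 at the top of the large subunit panel.

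The SD between transcript rows of the same gene gives a scale for differences within an array pair. Over the 2892 genes with at least 2 rows above both floors it was 0.37, and over the 16 such members it was 0.35. By that scale 19 of 58 members were lower by more than 0.37 and 4 were higher by more than that. The shares were 32.8% and 6.90%, against 22.8% and 18.8% of all genes above both floors. The other 35 members differed by less than the spread between rows. This spread holds probe error within the pair of arrays and any difference between the transcripts that the rows cover. It leaves out an error shared by all rows of a gene. It also leaves out the variation between animals, which these data do not measure.

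Mrpl51, a mitochondria-specific protein of the large subunit, was the lowest member and was 2.45-fold lower in the knockout. Its brightest row read 13.14 in the knockout and 14.44 in the wild type, a difference of -1.29, and its other row differed by -1.498. It is annotated as gene ID 66493 on chromosome 6 from 125142182 to 125144410 of the MM9 assembly that the files use. Mrps14, whose protein has a bacterial counterpart in the head of the small subunit, was 2.12-fold lower. It read 12.22 in the knockout and 13.31 in the wild type from its 1 row (chromosome 1 from 162125396 to 162129950). Both genes were well above the floors on both arrays, so these are measured folds and not bounds.

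Mrpl41 was the only member 2-fold or more above the wild type, and it rests on a bound that just reaches that fold. This mitochondria-specific large subunit gene read 10.11 in the knockout and 8.42 in the wild type, the wild-type value being under its floor. Set against the floor, it was at least 2.0-fold higher (chromosome 2 from 24829636 to 24830557). It has 1 row, so no other row bears on it.

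The other 8 of the 10 lowest members above both floors came from both subunits. Mrps18b, 1 of 3 genes that resemble the same bacterial protein, read 9.31 in the knockout and 10.24 in the wild type. Mrpl49, a mitochondria-specific large subunit gene, read 9.85 in the knockout and 10.73 in the wild type. Mrps15, whose protein binds the small ribosomal RNA, read 9.76 in the knockout and 10.63 in the wild type. All 3 were between 1.83-fold and 1.90-fold lower, but only Mrps18b had a second detected row at that size, with a difference of -0.89. The other detected row of Mrpl49 differed by -0.13. A row of Mrps18b below the floors differed by -0.15, and one of Mrps15 by 0.20. Mrps21, another gene with a bacterial counterpart, read 10.45 in the knockout and 11.29 in the wild type. Mrpl22, which lines the tunnel through which new chains leave, read 9.17 in the knockout and 10.005 in the wild type. Mrpl2, whose protein lies beside the peptidyl transferase centre, read 9.62 in the knockout and 10.38 in the wild type. These 3 genes were 1.80-fold, 1.79-fold and 1.69-fold lower, each from 1 row. Mrpl21 and the mitochondria-specific small subunit gene Mrps35 differed by -0.75 and -0.74.

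The 10 highest members above both floors were 8 large subunit genes with Mrps2 and Mrps12. Mrpl48, a mitochondria-specific protein of the central protuberance, read 10.28 in the knockout and 9.49 in the wild type, but its other detected row differed by -0.24. Mrpl1, part of the stalk near the exit of spent transfer RNA, read 9.74 in the knockout and 9.14 in the wild type. Mrpl39, a mitochondria-specific protein near the tunnel exit, read 13.13 in the knockout and 12.54 in the wild type. Those differences are 0.79, 0.60 and 0.59, the last 2 from a single row each. The difference was 0.38 for Mrpl3, 0.35 for Mrpl33, 0.31 for Mrps2, 0.24 for Mrpl14 and 0.20 for Mrpl10. The other detected row differed by 0.15 in Mrpl3 and by -0.31 in Mrpl33, and a row of Mrpl3 below the knockout floor differed by -0.56. Mrps12, a protein of the decoding centre, differed by 0.18 and its other row by 0.28. Mrpl24 differed by 0.17 and its other row by 0.13, so the rows of both genes lay on the same side of 0.

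The subunits are described side by side, with no test of a difference between them. The median difference was -0.16 for the 36 large subunit genes above both floors and -0.26 for the 22 small subunit genes. Of the large subunit genes 26 were negative and 10 positive, and of the small subunit genes 17 were negative and 5 positive. The large minus small difference of the medians was 0.10. It was 0.31 with the floor at the 99th percentile of receptor rows, and it turned to -0.076 when the rows of each gene were averaged. Differences ranged from -1.29 to 0.79 in the large subunit and from -1.09 to 0.31 in the small one. All 4 members at least 1.5-fold higher, Mrpl41, Mrpl48, Mrpl1 and Mrpl39, encode large subunit proteins. Large subunit genes were also 38 of the 60 members above a floor, and small subunit genes 22. Mrpl41 rests on a bound, and another detected row of Mrpl48 was negative. At least 1.5-fold lower were 8 of the 38 large and 6 of the 22 small subunit genes. In the assembled particle Mrps30 and Mrps18a belong to the large subunit, and Mrps36 is a part of a dehydrogenase complex and not of the ribosome. With these assignments the difference between the subunit medians was again 0.10.

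**Figure D2:**
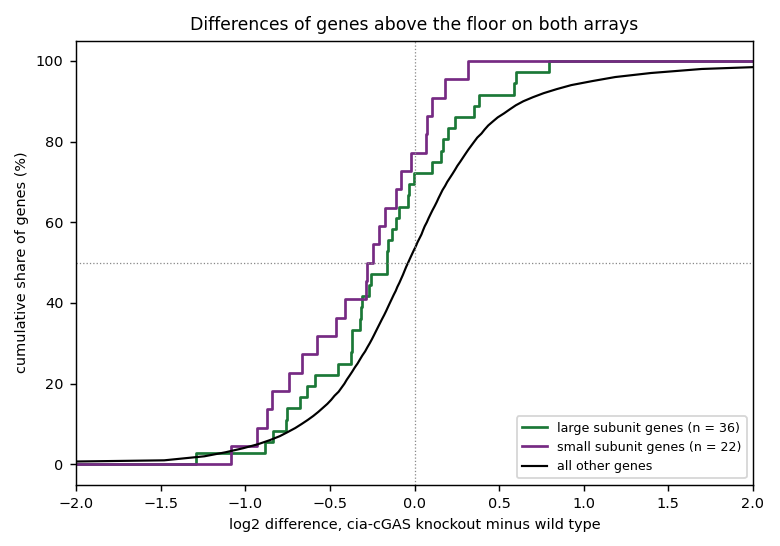
Cumulative share of genes (vertical axis, percent) by log2 difference between knockout and wild type (horizontal axis) for large subunit genes (green), small subunit genes (purple) and all other genes above both floors (black). Both subunit curves lie left of the black curve at the median, with medians of -0.16 and -0.26 against -0.04, and neither reaches the long right-hand tail of the other genes.

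Members specific to mitochondria had a median difference of -0.34 over 20 genes above both floors, and members with a bacterial counterpart -0.17 over 37 genes. Classes follow the common ribosomal protein nomenclature, and subunits are here those of the assembled particle. In the small subunit all 7 mitochondria-specific members above both floors had negative differences, with a median of -0.46. They were Mrps18b, Mrps35, Mrps33, Mrps22, Mrps25, Mrps27 and Mrps31, of which Mrps31 differed by -0.02 and Mrps27 by -0.08. The 13 small subunit genes with a bacterial counterpart had a median of -0.21, with 4 positive. In the large subunit the medians were -0.31 over 13 mitochondria-specific genes and -0.16 over 24 genes with a counterpart.

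The factor-binding stalk and the tunnel exit are separate sites of the large subunit, and their genes above both floors are named here. At the stalk, Mrpl53 read 10.09 in the knockout and 10.73 in the wild type, and Mrpl54 read 10.96 in the knockout and 11.55 in the wild type. Mrpl11, at the site where translation GTPases dock, read 11.29 in the knockout and 11.67 in the wild type. These 3 genes were 1.55-fold, 1.51-fold and 1.30-fold lower. Mrpl12, the flexible stalk protein that recruits elongation factors, differed by -0.16, and Mrpl10, its anchor, by 0.20. At the tunnel exit 6 of 8 genes were above both floors. Mrpl22 was lower, as given above, Mrpl23 differed by -0.17, and Mrpl17, Mrpl24, Mrpl39 and Mrpl45 had differences from 0.10 to 0.59. Mrpl45 anchors the ribosome to the inner membrane and differed by 0.10. The median was -0.38 at the stalk and 0.13 at the tunnel exit, over 5 and 6 genes. The means were -0.31 and 0.002, and differences at the tunnel exit ran from -0.84 to 0.59. These summaries were not recalculated under other settings, and nothing was tested between the 2 sites.

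The 3 homologues of a bacterial small subunit protein, Mrps18a, Mrps18b and Mrps18c (the first 2 classed above as mitochondria-specific, by their names in that nomenclature), did not share a value. Mrps18b was 1.90-fold lower. Mrps18a, which lies in the large subunit of the particle, read 9.19 in the knockout and 9.12 in the wild type. Mrps18c, the homologue at the bacterial position, read 10.82 in the knockout and 10.75 in the wild type. Mrps18a and Mrps18c thus differed by 0.07 each from the rows used, but the other row of Mrps18c differed by 0.80. The members lay on 17 chromosomes, with at most 10 on 1 of them. Mrpl46 and Mrps11, which are 220 bases apart on chromosome 7, were the only members within 100 kb of each other. Mrps11 differed by 0.10, and Mrpl46 was below both floors.

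Transcript rows of the same gene did not always move alike. Of the 75 members 31 had several rows, and 16 had at least 2 rows above both floors. All detected rows were negative in 8 of these 16 and positive in 4, and they differed in sign in the other 4, which were Mrpl33, Mrpl34, Mrpl48 and Mrpl4. Counting rows under the floors too, 4 members had rows of opposite sign at least 1 apart. The rows of Mrps36 ran from -0.58 to 1.21, those of Mrpl4 from -1.34 to 0.04, those of Mrps15 from -0.87 to 0.20 and those of Mrpl48 from -0.24 to 0.79. A row was below a floor at one end of the range in Mrps36, Mrpl4 and Mrps15, and in Mrpl48 both outer rows were detected. The files also hold pseudogenes of Mrpl23, Mrpl27 and Mrps36, which can share hybridisation with them, so these 3 genes are uncertain.

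**Figure D3:**
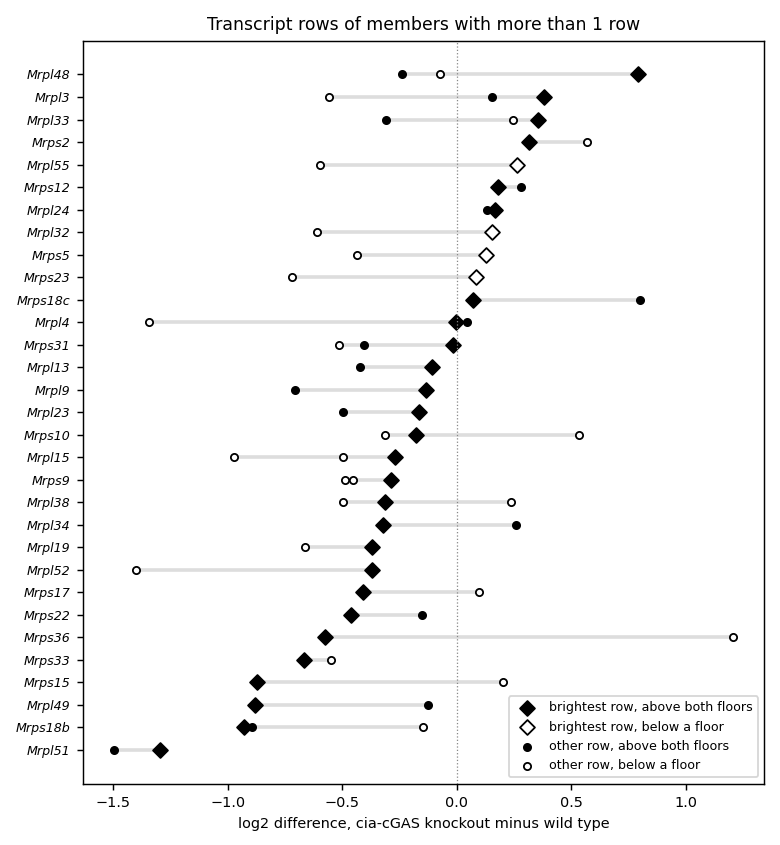
Log2 difference between knockout and wild type (horizontal axis) for each transcript row of the 31 members with more than 1 row. Diamonds mark the brightest row, which stands for the gene, and filled symbols are above both floors. The rows of Mrpl51 lie together at -1.498 and -1.29, while those of Mrps36 and Mrpl4 spread over more than 1 log2 unit.

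The files hold 8 more subunits of the particle under other names, and their median was negative too, with both signs among them. Of the 7 above both floors 5 had negative and 2 positive differences, with a median of -0.45. Gadd45gip1, a large subunit protein also known as a cell cycle inhibitor, was 3.33-fold lower, with 9.54 in the knockout and 11.27 in the wild type from its 1 row. Chchd1 and Aurkaip1 of the small subunit differed by -0.83 and -0.49, and Mrpl42, filed under an older name, by -0.45. Ptcd3, which binds ribosomal RNA, differed by -0.28, with rows from -1.06 to 0.95. Mrpl58, a peptidyl-tRNA hydrolase that frees stalled ribosomes, differed by 0.04. Dap3, a GTP-binding small subunit protein also named for a role in cell death, differed by 0.31, and its lowest row by -0.09. Mrpl57 was below both floors. Mrpl42 and Mrpl57 were added to this list after their values were seen. With all 8 included the median over 65 genes was -0.26.

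The detected factors of mitochondrial translation had negative differences in the rows used, and assembly factors had both signs. Of 14 translation genes measured 8 were above both floors, all with negative differences in their brightest rows and a median of -0.50. Other rows did not all share that sign. Those of Mtif2 ran from -0.67 to 1.26 and those of Mtrf1 from -0.67 to 0.39. Mtif3, an initiation factor, was 3.10-fold lower, with 9.78 in the knockout and 11.41 in the wild type, but its rows ran from -1.63 to -0.07. Lrpprc, which stabilises mitochondrial messenger RNA, differed by -0.69, and its partner Slirp by -0.05, with another row at 0.49. With the rows of a gene averaged, only 4 translation genes stayed above both floors, and the median was -0.27. With the floor at the 99th percentile of receptor rows 3 remained, with a median of -0.053. Of 27 assembly factors measured 10 were above both floors, 7 negative and 3 positive, with a median of -0.18 and 0 past 2-fold in either direction. The highest were Mterf3 and Eral1, a chaperone of the small ribosomal RNA, at 0.76 and 0.71, although another row of Eral1 differed by -0.53.

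Genes that express mitochondrial DNA had a median of -0.07 over 9 of 18 above both floors, and a mean of 0.21. Pnpt1, a mitochondrial RNA-degrading enzyme known to be induced by interferon, was 3.21-fold higher, with 11.98 in the knockout and 10.30 in the wild type. The RNA polymerase gene Polrmt was below both floors, and Tfam, the DNA-packaging factor, passed the floor in the knockout alone without reaching that of the wild type. Among 8 detected regulators of mitochondrial biogenesis 7 had negative differences, with a median of -0.24. Gabpb2, a partner of GABPA, was 2.01-fold lower, with rows from -1.65 to 0.13. Max, the partner of MYC, was 2.20-fold higher, with rows from 1.14 to 1.96. Yy1 differed by -0.84, Gabpa by -0.42 (with another row at 0.83) and Nrf1 by -0.03. Yy1 was chosen after its value was seen, as were Mterf3 and Eral1.

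The other protein-synthesis and respiratory lists on these arrays had medians of the same sign and similar size. Cytosolic ribosomal protein genes had a median of -0.14 over 80 genes above both floors, 58 negative and 22 positive. Oxidative phosphorylation subunits encoded in the nucleus had a median of -0.18 over 72 genes, 49 negative and 23 positive. Lower by 2-fold or more were Rps21 (2.28-fold) and Rpl22l1 (2.06-fold) of the cytosolic ribosome and Ndufs6 (2.36-fold) of complex I. In each list 0 genes reached 2-fold in the other direction. With 1 array per group the difference between these lists and the mitochondrial ribosomal proteins could not be tested. Rows placed on the mitochondrial chromosome, chosen after their values were seen, include cytochrome oxidase subunit II and NADH dehydrogenase 4, whose messenger RNAs this ribosome translates. The first read 15.42 in the knockout and 15.74 in the wild type, and the other 15.84 in the knockout and 15.55 in the wild type. Both lie near the highest value of either array, 15.84 and 15.89, where differences can be compressed. Rows there named for NADH dehydrogenase 1 and cytochrome oxidase subunit III differed by 0.41 and -0.28. Some rows there carry names that may be wrong for their position.

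**Figure D4:**
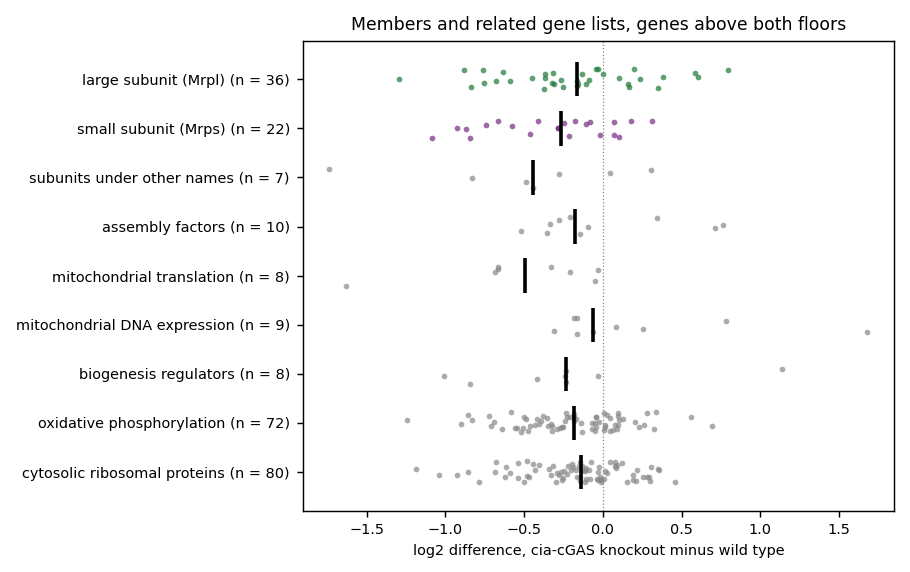
Log2 difference between knockout and wild type (horizontal axis) for each gene above both floors, with a vertical bar at the median of each list. The medians of the subunits, -0.16 and -0.26, lie beside those of oxidative phosphorylation, -0.18, and cytosolic ribosomal proteins, -0.14.

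Short cores of GABPA, YY1 and NRF1 were more frequent in promoters of members than in promoters at large. The ETS core was in 23 of 66 member promoters, or 34.8% (95% Wilson interval from 24.5% to 46.9%), against 9.12% of 27025 genes in the table and 11.9% of its 17492 protein-coding genes. The first YY1 core was in 18.2% of members, against 6.48% of all genes and 6.37% of protein-coding genes. The second was in 19.7% of members, against 4.19% and 5.41%. The 2 YY1 cores share the letters ATGG and can overlap. The NRF1 core was in 8 member promoters, or 12.1%, against 3.64% of all and 4.49% of protein-coding genes. The MYC core was in 5, or 7.58%, against 7.24% and 7.9%. Of the 27 ETS occurrences in member promoters 24 began within 100 bases before to 50 bases after the start. No such share is given for other promoters, so this position cannot be called particular to the members. The median GC content was 58.2% in members and 56.3% in protein-coding genes. Whether base composition accounts for these shares was not tested.

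Differences of members with and without a core are given as medians, none of which was tested. Members with an ETS core had a median difference of -0.32 over 21 genes above both floors, against -0.16 over 30 genes without it. Members with an NRF1 core had a median of 0.16 over 7 genes, against -0.23 over 44 genes without it. With the first YY1 core the median was -0.08 over 9 genes, against -0.21 over 42 without it. The median with an NRF1 core is the only one of these above 0, and it rests on 7 genes.

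**Figure D5:**
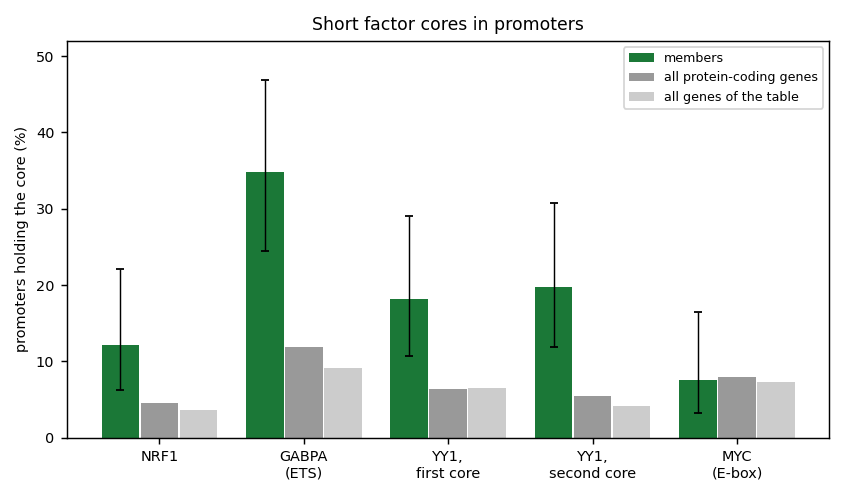
Percent of promoters holding each core (vertical axis, from 0) for members (green, with 95% Wilson intervals, n = 66), all protein-coding genes (dark grey) and all genes of the table (light grey). The ETS core is at 34.8% in members against 11.9% and 9.12%, while the MYC core is at 7.58% against 7.90% and 7.24%.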

How the data were processed

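The authors deposited linear intensities. Per the submitters' processing notes they come from RMA, with no version given, and per the file headers each combines the probes of 1 transcript row placed on MM9. The set of arrays that shared the normalization is not stated there. Log2 of each intensity was taken, with no further normalization. Per the labels' protocols, cDNA was primed with oligo dT from total RNA. Of 44170 transcript rows, 41886 carried a gene ID. Each gene was represented by its brightest row, averaged over both arrays. Newer symbols came by gene ID from RefSeq (GRCm38.p6). A gene above its floor on 1 array has a bound, taken from its value and the floor where it was not detected. No fold is given where this ratio was under 1. Named members are the 10 highest and 10 lowest above both floors, all past 2-fold, those with a bound, the Mrps18 and stalk genes and those whose rows differ in sign by 1 or more. Of each related list up to 3 genes past a difference of 1 in each direction are named, with all subunits under other names and 6 anchors. Others are named after their values were seen. The members and lists were chosen with earlier results of these data known. Calculations used Python 3.11.15, numpy 2.4.6, pandas 2.3.3, scipy 1.17.1, statsmodels 0.14.6 and matplotlib 3.10.9, and the steps were tested on simulated data. The number of arrays limits the precision.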

Additional observations from a re-analysis of the deposited data

How the results depend on the processing

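Alternatives were other floors (the 99th percentile of receptor rows, the median of all rows, none), the mean or the median over a gene's rows, loess (span 0.3) or median centring, the series-wide table, other folds, the mean of a list, undetected values raised to the floor and subunits assigned by structure. Leaving out Mrps36, leaving out members whose detected rows differ in sign, adding the subunits under other names and using any promoter entry of a gene (36.4% of members with an ETS core) were chosen after seeing the data. The median of the members stayed negative under its 13 alternatives, from -0.26 to -0.17, as did that of the large subunit, from -0.26 to -0.13, and of the small one, from -0.47 to -0.18. With the floor at the 99th percentile 24 members were above both floors, 5 of them positive, 0 were at least 2-fold higher, the small subunit median was -0.47 and the large minus small difference 0.31. That difference reversed to -0.076 with rows averaged and to -0.031 with the median over detected rows; the cause was not tested. At 1.5-fold 4 members were higher and 14 lower, and at 3-fold 0 and 0. Without bounds 0 were 2-fold higher. Differences of Mrpl51 and Mrps14 stayed beyond 1 in size under 5 alternatives each, not all of which could change them. Mrps14 has 1 row, so joining rows leaves its value as it was. For the 2 rows of Mrpl51 the mean and the median are the same value. The series-wide table repeats the same intensities, so it could not change any result. The bound of Mrpl41 depends on the wild-type floor. Among related lists, mitochondrial translation had medians of -0.053 at the 99th percentile floor, -0.27 with the floor at the median, with no floor and with rows averaged, and -0.33 with values set to the floor. The 6 subunits without an Mrp symbol, before the later additions, had a median of -0.38, which became -0.28 at the 99th percentile floor, -0.52 with either way of joining rows and -0.50 as a mean. Biogenesis regulators were at -0.13 with rows averaged, the mean of assembly factors was -0.011 and that of mitochondrial DNA expression reversed to 0.21. In a mean, single large values such as that of Pnpt1 weigh more. No paired analysis was possible because each group has 1 array. Values near the floor are limited by signal over background.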
